A study of Mus musculus with 10 samples.

Results

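The genes described here were the expressed long intergenic noncoding RNA (lincRNA) genes of the mouse uterus. They were chosen from the deposited expression table as the genes of biotype lincRNA whose level averaged at least 1 FPKM (fragments per kilobase of gene, scaled to sequencing depth) over all 10 mice, with the imprinted *H19* and *Meg3* left out. This gave 267 genes of the 2210 lincRNA genes and 29268 genes of the table. The mean over both genotypes chose the genes, so a gene that was high in 1 genotype alone could enter.

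Uterine samples of 5 HSD17B1TG and 5 WT female mice aged 4 months were compared, with 1 RNA-seq library per mouse. HSD17B1TG mice are FVB/N mice of a heterozygous line that express a human *HSD17B1* cDNA in all tissues from the CMV-enhanced chicken beta actin promoter. HSD17B1 is the enzyme that turns estrone into the more active estradiol. HSD17B1TG females do not cycle, and the methods of the study state that WT uteri were taken at random phases of the cycle. The comparison therefore asks how lincRNA levels differ between uteri with and without the transgene, with the cycle stage of the WT mice unrecorded in the labels. The human transgene was not analysed here. The mice are called TG1 to TG5 and WT1 to WT5.

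LincRNAs are transcribed by RNA polymerase II from their own genes between coding genes, are often spliced, and are mostly kept in the nucleus. Some build nuclear structures, as *Neat1* does for paraspeckles, and *Xist* coats and silences the X chromosome from which it is made. Others serve as precursors of microRNAs or small nucleolar RNAs (snoRNAs), and for many no function is known. In GENCODE M21, an annotation of the same genome build (GRCm38), all 267 genes were found, 260 of them again as lincRNA, 3 as transcripts of bidirectional promoters, 2 as processed transcripts, 1 as antisense and 1, *6330403K07Rik*, as protein-coding.

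Of the 267 genes, 11 span annotated microRNAs and 6 span annotated snoRNAs. The microRNAs of the 2 host genes that rose in HSD17B1TG uteri are shown first, as mature RNAs with the seed (bases 2 to 8, which pair with target RNAs) in capitals. MicroRNAs themselves were not measured in these libraries. *AL805899.1* spans Mir31, and *4833445I07Rik* spans Mir191 and Mir425. All coordinates are GRCm38, and the sequences are those of RefSeq (GRCm38.p6).
miR-31-5p, chr4:88910614-88910635, minus strand: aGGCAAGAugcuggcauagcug
miR-31-3p, chr4:88910577-88910599, minus strand: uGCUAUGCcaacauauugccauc
miR-191-5p, chr9:108568325-108568347, plus strand: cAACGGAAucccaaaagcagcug
miR-191-3p, chr9:108568367-108568388, plus strand: gCUGCACUuggauuucguuccc
miR-425-5p, chr9:108568789-108568811, plus strand: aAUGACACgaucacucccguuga
miR-425-3p, chr9:108568830-108568850, plus strand: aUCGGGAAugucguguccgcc

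These 6 RNAs have 6 different seeds. The other microRNAs shown here lie in *Mir17hg* and *Mir142hg*, whose levels did not pass the test. They are given because *Mir17hg* carries a whole cluster and because miR-142 is known from leucocytes. In the cluster, miR-17-5p and miR-20a-5p share 1 seed, miR-19a-3p and miR-19b-3p share another, and miR-18a-5p and miR-92a-3p each have their own.
miR-17-5p, chr14:115043684-115043706, plus strand: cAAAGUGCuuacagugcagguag
miR-20a-5p, chr14:115044183-115044205, plus strand: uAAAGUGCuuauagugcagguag
miR-18a-5p, chr14:115043867-115043889, plus strand: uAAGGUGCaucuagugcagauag
miR-19a-3p, chr14:115044048-115044070, plus strand: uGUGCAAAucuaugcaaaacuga
miR-19b-3p, chr14:115044358-115044380, plus strand: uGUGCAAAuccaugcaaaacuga
miR-92a-3p, chr14:115044476-115044496, plus strand: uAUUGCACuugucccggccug
miR-142a-3p, chr11:87756903-87756925, plus strand: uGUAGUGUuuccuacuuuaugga

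Most of the lincRNA genes were weakly expressed. A mean of 10 FPKM or more was reached by 30 genes, 122 lay from 2 to 10 FPKM and 115 under 2 FPKM. The order of levels was led by *Malat1* (137.7 FPKM as the mean of 10 mice), *Bvht* (100.6), *Xist* (86.6) and *Gm47754* (77.0). Just inside the limit of 1 FPKM lay *CT030636.1* (1.003) and *2700046G09Rik* (1.005), and just outside it *BC030343* (0.9993) and *4930447M23Rik* (0.9977). Both group means were at least 1 FPKM in 194 genes, while 47 genes reached 1 FPKM only in the HSD17B1TG mean and 26 only in the WT mean. The coefficient of variation between mice of a group had a median of 44.6% in HSD17B1TG and 40.0% in WT. The deposited FPKM were 0.998 to 1.171 times those that scaling to a mouse's total counts would give in HSD17B1TG mice and 0.859 to 1.009 times in WT mice, so levels in FPKM stand higher in HSD17B1TG relative to WT than on that scale.

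Of all counts, 0.580% ± 0.0521 (SD, n = 5) fell on the 267 genes in HSD17B1TG uteri and 0.621% ± 0.0455 in WT uteri. This difference was within the spread of the mice (p = 0.1905, exact permutation test, two-sided). Counting depth was 14817228 to 23271988 counts per mouse, and a gene's number of counts sets the precision of its level. Of the 267 genes, 248 had enough counts for edgeR's test, and the other 19 had between 29 and 219 counts in all 10 mice together and were between 154 and 1061 bases long.

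In HSD17B1TG uteri, 13 lincRNA genes rose and 3 fell past the call limits. A gene was called when edgeR's quasi-likelihood test gave an adjusted p under 0.05 with a fold change over 2 and a mean over 1 FPKM in either group. The 13 genes up were 5.24% of the 248 tested, beside 2.16% of all 16993 genes tested and 2.5% of the genes with a mean of at least 1 FPKM. In the other direction 3 (1.21%) were called down, beside 2.08% and 2.29%. The median log2 fold change was 0.14 over the 248 genes and 0.00 over all genes tested, and 147 of the 248 were positive, beside 50.2% of all genes. With upper-quartile factors in place of TMM the median over the 248 genes was 0.061. Of the 13 genes called up, 7 reached 1 FPKM only in the HSD17B1TG mean, so they entered the list through the group in which they were high. Among the 191 tested genes with both group means at least 1 FPKM, 6 (3.14%) were called up and 1 (0.524%) down, the median log2 fold change was 0.095 and 109 were positive. These counts describe the list and were not tested against other genes.

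The calls depended on single mice. Leaving out WT4 gave 30 lincRNA genes up and 9 down, and leaving out TG1 gave 24 and 6. Leaving out TG2, TG4, TG5, WT1, WT2, WT3 or WT5 left 1 to 4 called up and 0 to 2 called down. The calls over all genes moved in the same way, to 888 up and 666 down without WT4, 763 and 575 without TG1, and 38 to 100 up and 27 to 145 down without 1 of those 7 mice, beside 367 and 354 with all mice. With DESeq2, 31 were called up and 12 down, of which 16 and 6 were among the 191 genes with both group means at least 1 FPKM. DESeq2 called 4.17% and 3.07% of the 21712 genes to which it gave an adjusted p. Unlike the lincRNA list, those include genes with a mean under 1 FPKM, and no DESeq2 share was computed without them. Without regard to a test, all HSD17B1TG mice lay above all WT mice in 20 (8.065%) of the 248 genes and below them in 2 (0.8065%), beside 4.04% and 2.65% of all genes. Among the 191 genes these were 10 (5.24%) and 2 (1.05%).

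**Figure D1:**
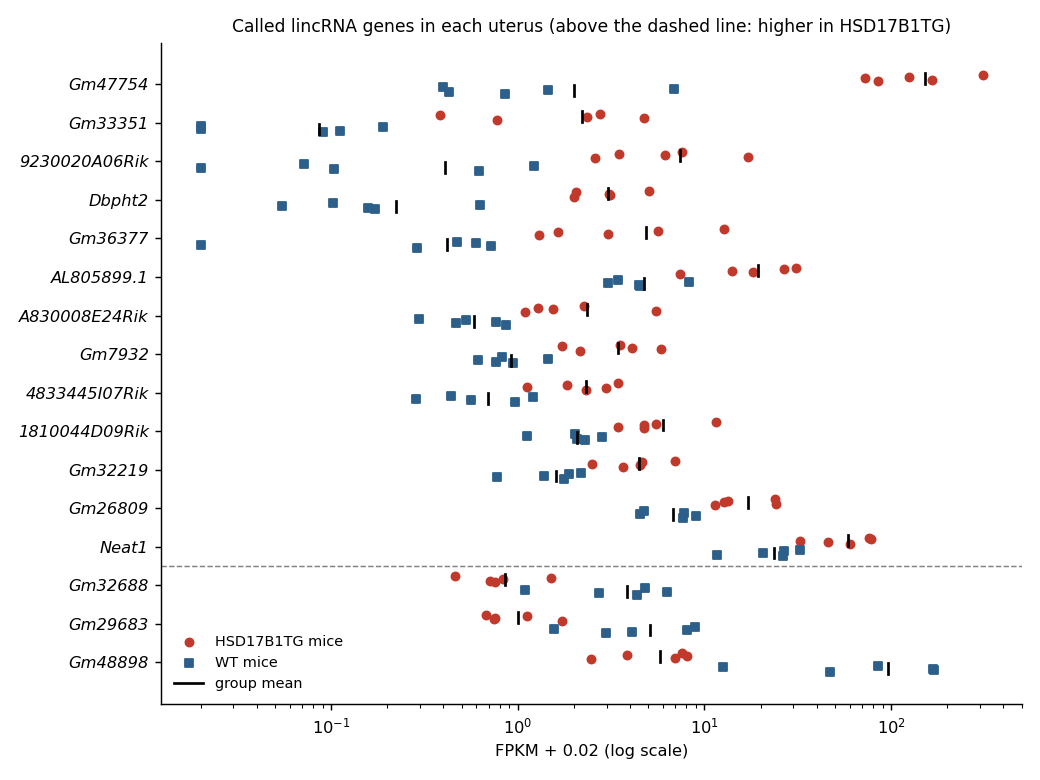
FPKM of the 16 called lincRNA genes in each mouse, on a log axis after adding 0.02 so that values of 0 can be drawn. Red circles are the 5 HSD17B1TG mice, blue squares the 5 WT mice and black ticks the group means. The 13 genes above the dashed line were called up and the 3 below it down, and *Gm47754* shows the widest gap, from 72.8 FPKM or more to 6.85 or less.

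The lincRNA with the largest change was *Gm47754* (ENSMUSG00000114784), a gene of no known function on chromosome 13, plus strand, from 37581077 to 37589313. Its level was 85.0, 165, 72.8, 125 and 312 FPKM in TG1 to TG5, and 0.837, 0.406, 1.43, 6.85 and 0.377 FPKM in WT1 to WT5. All HSD17B1TG mice stood more than 10-fold above the highest WT mouse, WT4, which itself stood apart from the other WT mice. The log2 fold change reached 6.25 with a standard error of 0.84 (edgeR adjusted p = 0.0149), or 76.1-fold, on 4939 counts in HSD17B1TG and 78 in WT. This was the only called lincRNA gene that kept its call whichever mouse was left out, with a log2 fold change of 5.81 to 7.63. Its nearest protein-coding gene, *Ly86*, 162041 bases away, had a log2 fold change of 0.05 (standard error 0.36).

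The annotated transcript of *Gm47754* has 389 bases, and its first 300 are shown with the promoter because the gene rose most. The promoter runs from 250 bases before the RefSeq start to 50 bases from it.
Gm47754 transcript, first 300 bases (GENCODE M21): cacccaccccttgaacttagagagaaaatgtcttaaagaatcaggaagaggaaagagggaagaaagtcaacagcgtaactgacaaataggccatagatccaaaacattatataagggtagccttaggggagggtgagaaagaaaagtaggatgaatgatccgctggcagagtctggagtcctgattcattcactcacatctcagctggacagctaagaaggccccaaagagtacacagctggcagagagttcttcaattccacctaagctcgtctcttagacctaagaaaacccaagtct
Gm47754, chr13:37580815-37581114, plus strand: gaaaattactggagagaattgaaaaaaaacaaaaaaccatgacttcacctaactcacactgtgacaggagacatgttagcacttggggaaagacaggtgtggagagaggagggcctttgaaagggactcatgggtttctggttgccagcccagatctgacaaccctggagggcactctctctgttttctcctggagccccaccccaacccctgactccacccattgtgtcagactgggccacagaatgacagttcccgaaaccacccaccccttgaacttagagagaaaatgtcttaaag

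The capitals that mark motifs in the promoters below are absent from the *Gm47754* promoter, since none of the 7 motifs searched was found in it. On the other strand, 16104 bases away, lies *Gm47751*, another lincRNA gene. It had 1.503, 2.01, 1.77, 0.760 and 3.04 FPKM in TG1 to TG5 and 0.214, 0, 0, 2.46 and 0 in WT1 to WT5. WT4 lay within the HSD17B1TG values, the other WT mice below all of them, and the gene was not called (log2 fold change 1.72, standard error 1.08, edgeR adjusted p = 0.340). It was called without WT4 (log2 fold change 4.62).

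*Gm48898* (ENSMUSG00000112441, chromosome 12, minus strand, 8291024 to 8293694) fell most. It had 2.45, 6.97, 8.02, 3.81 and 7.58 FPKM in TG1 to TG5 and 46.9, 171, 169, 12.6 and 85.5 in WT1 to WT5. The groups did not overlap, with WT4 the lowest WT mouse. The log2 fold change was -4.08 (standard error 0.68, edgeR adjusted p = 0.0177), which is 16.9-fold lower, and the call was lost only without TG5. It lies 4224 bases downstream of *Gdf7*, a growth factor of the bone morphogenetic protein family, on the same strand. *Gdf7* fell as well, from 25.8 ± 14.7 FPKM (SD, n = 5) to 1.82 ± 0.981 (log2 fold change -3.83, standard error 0.60, edgeR adjusted p = 0.0177), and reads that run on from *Gdf7* were not told apart from those of the lincRNA.

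*Gm29683* and *Gm32688* were the other genes called down. *Gm29683* (chromosome 7, minus strand, 70178868 to 70337852) had 1.70, 0.722, 0.731, 1.09 and 0.653 FPKM in TG1 to TG5 and 2.96, 4.06, 8.08, 1.53 and 8.94 in WT1 to WT5, so that only TG1 and WT4 overlapped. Its log2 fold change was -2.39 (standard error 0.50, edgeR adjusted p = 0.0292). The gene nearest to it, 14092 bases away, is *Nr2f2*, an orphan nuclear receptor of the uterine stroma, which had 16.9 ± 0.923 FPKM in HSD17B1TG and 28.3 ± 10.3 in WT and was not called (edgeR adjusted p = 0.0814). *Gm32688* (chromosome 10, 93317403 to 93322725) had 0.439 to 1.48 FPKM in HSD17B1TG and 1.08 to 6.25 in WT, with a log2 fold change of -2.19 (standard error 0.50, edgeR adjusted p = 0.0366) on 42 and 221 counts.

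In these bulk samples, fewer cells of a type and less RNA per cell cannot be told apart. Of 8 stromal markers, 4 were called down as these 3 genes were (*Pdgfra*, *Col3a1*, *Hoxa11* and *Hoxa10*), and the list's median log2 fold change was -1.415. *Lum* alone had a positive log2 fold change (0.51, edgeR adjusted p = 0.518), and *Dcn* changed little (-0.10, edgeR adjusted p = 0.915). The summed level of the 8 was 544.5 to 2005 FPKM in HSD17B1TG and 1849 to 2350 in WT, with no marker at 0 in all mice. Of 5 tested natural killer and T cell markers 3 were called down, with a sum of 0.921 to 6.84 FPKM in HSD17B1TG and 8.90 to 94.4 in WT. Of 10 epithelial markers 9 had positive log2 fold changes (median 1.22) and 0 were called in edgeR (8 with an unadjusted p under 0.05, 3 called in DESeq2), and their sum was 674 to 3117 FPKM in HSD17B1TG and 489 to 1599 in WT. Of 5 leucocyte markers, *Laptm5* was called up (log2 fold change 1.28), while the other 4 had negative log2 fold changes, 3 of them with an unadjusted p under 0.05, and the list's median was -0.90. Of 7 tested neutrophil and macrophage markers 2 were called up (*Itgam* and *Cd68*), 5 had positive log2 fold changes and the median was 0.53. In the other lists edgeR called 0 of the 6 endothelial, 3 plasma and B cell, 2 oviduct cilia and 1 adipocyte markers tested. In these 4 lists, 4, 1, 1 and 1 genes had an unadjusted p under 0.05, and DESeq2 called 1, 1, 0 and 1. All 6 endothelial markers had negative log2 fold changes (median -0.94), while each of the other lists had 1 positive marker. The part of these cell type levels in the lincRNA results was not tested.

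WT4 was the WT mouse nearest to the HSD17B1TG mice in 7 of the 13 genes called up and in all 3 called down. It also had the highest summed level of epithelial markers among the WT mice (1599 FPKM), the highest of smooth muscle markers (5776) and the lowest of natural killer and T cell markers (8.90). Its sum of stromal markers (1978 FPKM) was the median of the WT mice. Among the HSD17B1TG mice, TG1 was nearest to the WT mice in 6 of the 13 genes called up, and it had the lowest summed level of epithelial markers (674 FPKM) and the highest of stromal markers (2005) in that group, together with the highest of smooth muscle markers of all 10 mice (7350).

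Next to *Gm47754*, the largest rises were in *Gm33351* and *9230020A06Rik*, which overlap each other on opposite strands of chromosome 11. *9230020A06Rik* (plus strand, 71512377 to 71573183) had 2.57, 17.0, 6.17, 3.48 and 7.56 FPKM in TG1 to TG5 and 0.602, 0.0835, 0, 1.20 and 0.0516 in WT1 to WT5. *Gm33351* (minus strand, 71553408 to 71574595) had 0.749, 4.72, 2.32, 0.361 and 2.73 FPKM in TG1 to TG5 and 0.0710, 0.0919, 0, 0.169 and 0 in WT1 to WT5. In both genes the groups did not overlap and TG2 was highest. The log2 fold changes were 4.23 (standard error 1.05, edgeR adjusted p = 0.0435) and 4.92 (standard error 0.93, edgeR adjusted p = 0.0233), the latter on 323 counts against 12. Exons of the pair overlap over 9.86% and 21.7% of their exonic length, and the strand setting of the counting is not given in the sources used here, so reads in the overlap could belong to either gene.

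*Dbpht2* (chromosome 12, plus strand, 74296668 to 74302008) had 1.99, 3.10, 3.04, 2.02 and 5.02 FPKM in TG1 to TG5 and 0.152, 0.138, 0.0348, 0.607 and 0.0823 in WT1 to WT5. The lowest HSD17B1TG mouse was above the highest WT mouse, WT4. The log2 fold change was 3.89 (standard error 0.67, edgeR adjusted p = 0.0198), and the call held in 7 of the 10 fits without a mouse. *Gm36377* (chromosome 13, minus strand, 70651005 to 70655787) had 1.28 to 12.7 FPKM in HSD17B1TG and 0 to 0.695 in WT, with a log2 fold change of 3.56 (standard error 0.82, edgeR adjusted p = 0.0370) on 299 and 31 counts. Exons of another gene on the other strand overlap 26.02% of its exonic length.

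The promoters of *Gm33351*, *Gm36377* and *Gm29683* are shown beside that of *Gm47754* because these genes changed most among those with an entry in RefSeq's promoter table that holds a motif. Capitals mark the motifs found on either strand. *Gm33351* holds 1 estrogen response core, GGTCA, starting 188 bases before the start. *Gm36377* holds 2 such cores, starting 23 and 11 bases before the start, and 1 interferon response core, GAAANNGAAA, 154 bases before it. *Gm29683* holds 1 GC box, GGGCGG, 65 bases before its start.
Gm33351, chr11:71574550-71574849, minus strand: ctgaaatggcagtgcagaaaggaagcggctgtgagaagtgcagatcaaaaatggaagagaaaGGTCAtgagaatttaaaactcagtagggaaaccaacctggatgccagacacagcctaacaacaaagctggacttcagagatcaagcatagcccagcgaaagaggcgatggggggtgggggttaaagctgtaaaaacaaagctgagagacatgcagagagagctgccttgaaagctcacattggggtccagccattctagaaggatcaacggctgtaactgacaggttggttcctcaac
Gm36377, chr13:70655787-70656086, minus strand: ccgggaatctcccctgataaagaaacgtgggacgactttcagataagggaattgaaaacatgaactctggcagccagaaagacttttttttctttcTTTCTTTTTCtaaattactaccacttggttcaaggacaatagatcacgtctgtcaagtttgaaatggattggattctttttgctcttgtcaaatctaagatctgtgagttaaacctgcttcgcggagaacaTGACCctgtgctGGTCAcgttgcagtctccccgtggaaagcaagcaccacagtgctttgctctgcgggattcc
Gm29683, chr7:70337803-70338102, minus strand: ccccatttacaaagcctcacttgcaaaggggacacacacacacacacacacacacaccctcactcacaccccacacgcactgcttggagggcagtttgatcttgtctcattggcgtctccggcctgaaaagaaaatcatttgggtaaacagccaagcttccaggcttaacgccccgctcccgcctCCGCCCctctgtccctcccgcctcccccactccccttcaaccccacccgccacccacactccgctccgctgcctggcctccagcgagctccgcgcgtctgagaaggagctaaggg

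Such matches are common. Counting each gene once over its 1 or more promoters, the core GGTCA was present on either strand in 43.6% of all 27025 genes with a RefSeq promoter of this length and in 42.1% of the 107 lincRNA genes with an entry. The GC box was present in 38.2% of all genes and 39.3% of these lincRNA genes, and the interferon core in 3.99% and 1.87%. The full estrogen response element GGTCANNNTGACC, which contains 2 cores, was present in 0.074% of all genes and in 0 of the 107 lincRNA genes. Of the 10 called genes with an entry, 3 of 8 called up and 0 of 2 called down held a core, and 2 of 8 and 2 of 2 held a GC box. The other motifs were the AP-1 site TGANTCA (8.97% of all genes, 9.35% of the lincRNA genes, 1 called gene), the ETS core CCGGAAG (9.93%, 16.8%, 1) and the TATA box TATAAA (15.7%, 11.2%, 0). A match describes letters and is not a binding site.

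Among the nuclear RNAs of known function, *Neat1*, the RNA that holds paraspeckles together, was called up. It had 60.6, 45.8, 32.5, 77.9 and 75.8 FPKM in TG1 to TG5 and 26.5, 11.7, 20.5, 26.7 and 32.5 in WT1 to WT5. The groups met at TG3 (32.54) and WT5 (32.46). The mean was 58.5 ± 19.5 FPKM in HSD17B1TG and 23.5 ± 7.88 in WT (SD, n = 5 each), a 2.48-fold rise (log2 fold change 1.31, standard error 0.32, edgeR adjusted p = 0.0407) on 103331 and 50222 counts. The call was lost in 7 of the 10 fits without a mouse, in which the log2 fold change stayed between 1.12 and 1.44. Its share of all counts was 0.114% in HSD17B1TG and 0.0519% in WT (p = 0.01587, exact permutation test, two-sided). The 3 mice with the highest *Neat1* shares, TG4 (0.158%), TG5 (0.134%) and TG1 (0.121%), also had the highest shares of counts on mitochondrial genes (6.87%, 7.57% and 5.74%), beside 1.94% to 3.37% in the other 7 mice. The mitochondrial share averaged 4.92% ± 2.56 in HSD17B1TG and 3.07% ± 0.322 in WT (SD, n = 5 each, p = 0.1667, exact permutation test, two-sided), and its part in the level of *Neat1* was not tested.

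*Malat1*, which resides in nuclear speckles and lies 22035 bases from *Neat1* on the same strand, had 76.7 to 165 FPKM in HSD17B1TG and 98.7 to 183 in WT. The groups overlapped over most of their range (log2 fold change -0.16, standard error 0.24, edgeR adjusted p = 0.723). *Xist* had 89.7, 89.6, 91.5, 62.8 and 53.0 FPKM in TG1 to TG5 and 106, 94.4, 99.3, 88.7 and 91.1 in WT1 to WT5, with TG4 and TG5 below the rest. It was not called (log2 fold change -0.32, standard error 0.20, edgeR adjusted p = 0.340), while its share of all counts was 0.132% ± 0.0355 in HSD17B1TG and 0.185% ± 0.0184 in WT (p = 0.01587, exact permutation test, two-sided). TG4 and TG5, the mice with the lowest *Xist*, were those with the highest mitochondrial shares, and the part of that share was not tested.

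*2900097C17Rik*, the mouse *Norad* gene, whose RNA binds Pumilio proteins, had 43.4 to 52.0 FPKM in HSD17B1TG and 48.9 to 69.2 in WT (log2 fold change -0.36, standard error 0.13, edgeR adjusted p = 0.120), and a near-identical copy, *Gm7292*, is also among the 267 genes, so reads could be split between them. *Ftx*, a gene of the X inactivation centre, had 1.33 to 2.17 FPKM in HSD17B1TG and 1.73 to 2.63 in WT (log2 fold change -0.45, edgeR adjusted p = 0.160). *Pvt1*, next to *Myc*, had 1.59, 0.665, 0.456, 0.780 and 0.505 FPKM in TG1 to TG5 and 1.36, 2.02, 2.37, 0.824 and 2.62 in WT1 to WT5. TG1, WT1 and WT4 lay in the other group's range. The log2 fold change of -1.21 (standard error 0.42, edgeR adjusted p = 0.0986) passed the test in the fit without TG1 and in the fit without WT4. *Myc*, 47612 bases away, was called down (log2 fold change -1.25, edgeR adjusted p = 0.0497).

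**Figure D2:**
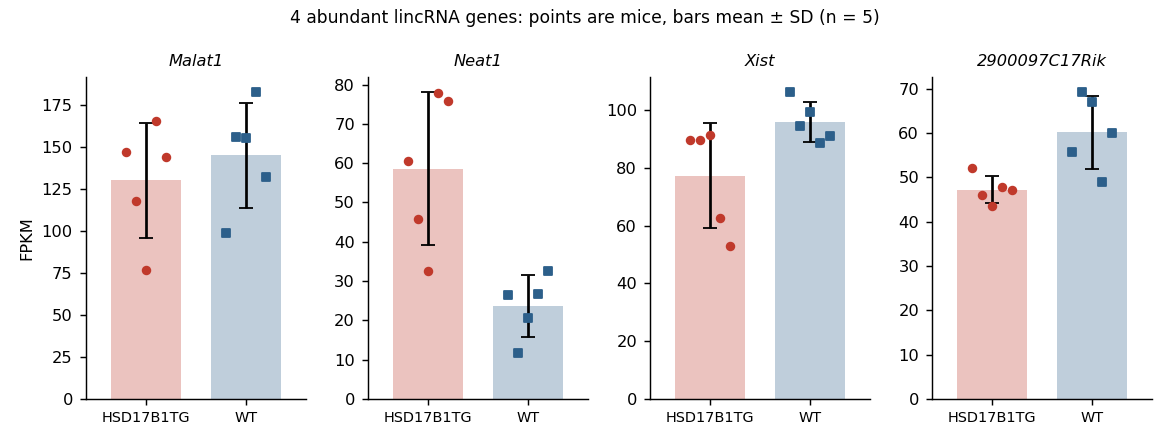
FPKM of *Malat1*, *Neat1*, *Xist* and *2900097C17Rik* in each mouse, each on its own axis from 0. Points are mice, bars group means and error bars SD (n = 5). *Neat1* averaged 58.5 FPKM in HSD17B1TG and 23.5 in WT, and in the other 3 genes the groups overlapped.

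The proteins these RNAs work with were read from 5 lists. Of 18 paraspeckle proteins 0 were called in edgeR (median log2 fold change -0.14), with the smallest p in *Nudt21*, a cleavage factor subunit (log2 fold change -0.44, adjusted p = 0.0514), and in *Pspc1* (-0.50, adjusted p = 0.177). The counts were likewise 0 of 19 nuclear speckle proteins (median -0.01), 0 of 16 partners of *Xist* (0.00), 0 of 16 nonsense-mediated decay factors (0.01) and 0 of 13 microRNA processing factors (-0.02). The genes of smallest p were *Srsf5* and *Sf3b1* among the speckle proteins, *Pcgf5* and *Matr3* among the *Xist* partners, and *Xpo5* and *Dgcr8* among the microRNA processing factors. Of the 81 genes in these lists 5 had an unadjusted p under 0.05 in edgeR, and DESeq2 called 0. Across all genes 14.7% had a positive log2 fold change with an unadjusted p under 0.05 and 11.4% a negative one, beside 55 (22.2%) and 30 (12.1%) of the 248 lincRNA genes, and 34 (17.8%) and 23 (12.04%) of the 191 with both group means at least 1 FPKM.

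Of the 11 microRNA hosts, 2 were called up and 0 down, beside 2.16% and 2.08% of all genes tested. A list of 11 is too small for a comparison of shares. Each of the 2 kept its call in 3 of the 10 fits without a mouse. *AL805899.1* (ENSMUSG00000117123, chromosome 4, minus strand, 88909855 to 88938521), which spans Mir31, had 7.40, 18.1, 14.1, 26.6 and 31.1 FPKM in TG1 to TG5 and 4.49, 4.46, 3.02, 8.24 and 3.41 in WT1 to WT5. Only TG1 lay below a WT mouse, WT4. The log2 fold change was 2.04 (standard error 0.41, edgeR adjusted p = 0.0260). Its nearest protein-coding gene, *Ifne*, an interferon of the epithelium of the reproductive tract 29654 bases away, had 24.0 ± 15.4 FPKM in HSD17B1TG and 3.25 ± 3.24 in WT and missed the threshold (log2 fold change 2.88, standard error 0.80, edgeR adjusted p = 0.0564).

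*4833445I07Rik* (chromosome 9, plus strand, 108567533 to 108569174), which spans Mir191 and Mir425, had 1.10 to 3.404 FPKM in HSD17B1TG and 0.264 to 1.18 in WT (log2 fold change 1.77, standard error 0.46, edgeR adjusted p = 0.0471). It starts 99 bases from *Ndufaf3*, an assembly factor of respiratory complex I on the other strand (log2 fold change 0.17, edgeR adjusted p = 0.554). The call of *4833445I07Rik* was lost without the filter on low counts and in limma on log2(FPKM + 1). The other 9 hosts were not called. *Mir17hg* averaged 3.25 ± 1.16 FPKM in HSD17B1TG and 4.02 ± 1.13 in WT (SD, n = 5 each), *Snhg20*, which spans Mir6516, 19.1 ± 4.31 and 13.01 ± 2.46 (edgeR adjusted p = 0.0959), and *Mir142hg* 5.27 ± 2.64 and 8.22 ± 4.43 on 120 and 215 counts.

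*Carmn*, host of the smooth muscle microRNAs miR-143 and miR-145 by general knowledge, and *Bvht*, an RNA of the cardiac lineage, varied widely within both groups. *Bvht* had 253, 144, 132, 64.2 and 23.8 FPKM in TG1 to TG5 and 62.7, 32.3, 19.3, 207 and 66.5 in WT1 to WT5. *Carmn* had 7.15, 10.7, 6.83, 4.71 and 1.28 FPKM in TG1 to TG5 and 5.46, 0.594, 0.269, 13.3 and 1.99 in WT1 to WT5. The genes lie 2152 bases apart on opposite strands, so their levels need not be independent. In both genes WT4 was the highest WT mouse, WT3 the lowest WT mouse and TG5 the lowest HSD17B1TG mouse. The same 3 mice had the highest and lowest sums of 8 smooth muscle markers in their groups (5776, 407 and 866 FPKM). TG1 had the highest sum of all mice (7350 FPKM) and the highest *Bvht*, while *Carmn* was highest among HSD17B1TG mice in TG2. Neither lincRNA was called (log2 fold changes 0.67 with a standard error of 0.68 and 0.51 with a standard error of 0.89). All 8 markers had positive log2 fold changes (median 0.64). By edgeR or DESeq2 0 of the 8 were called, nor did any reach an unadjusted p under 0.05 in edgeR.

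**Figure D3:**
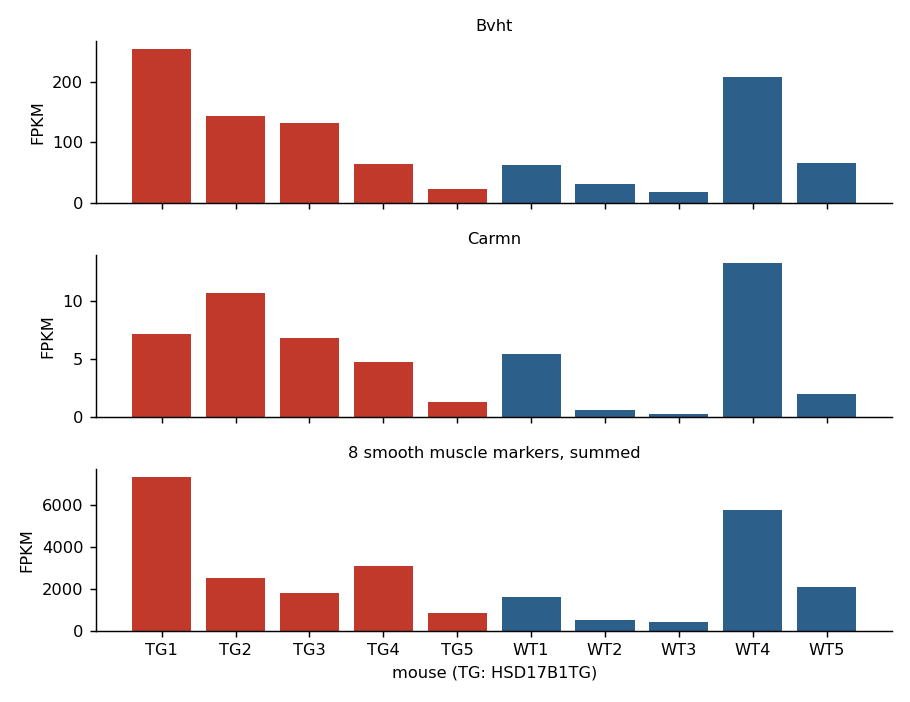
FPKM of *Bvht*, *Carmn* and the sum of 8 smooth muscle markers (*Acta2*, *Myh11*, *Cnn1*, *Tagln*, *Des*, *Actg2*, *Smtn* and *Lmod1*) in each mouse, with HSD17B1TG in red and WT in blue. The 3 panels share the high bar of WT4 and the low bars of TG5 and WT3.

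SnoRNA hosts release snoRNAs from their introns. They were read from a list of *Snhg* genes and *Epb41l4aos*, of which 6 were among the 267 genes and 0 were called. The list went by name, and *Snhg20* spans no annotated snoRNA, so these are not the 6 genes counted above as spanning snoRNAs. *Snhg12* had 4.34 to 10.9 FPKM in HSD17B1TG and 9.86 to 14.0 in WT (log2 fold change -0.66, standard error 0.23, edgeR adjusted p = 0.103). *Snhg6* had 10.9 to 18.04 and 16.4 to 25.02 FPKM (log2 fold change -0.50, standard error 0.18, edgeR adjusted p = 0.110). *Snhg18* (edgeR adjusted p = 0.248), *Snhg10* (0.489), *Snhg20* (0.0959) and *Epb41l4aos* (0.534) overlapped between the groups too. Of the 6 listed genes, 3 had an unadjusted p under 0.05 in edgeR and DESeq2 called 0.

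By annotation rather than by name, *A830008E24Rik* (chromosome 1, minus strand, 154037597 to 154117951) also spans a snoRNA, and it is described here because it was called. It had 1.07, 5.49, 1.52, 1.26 and 2.23 FPKM in TG1 to TG5 and 0.844, 0.448, 0.748, 0.507 and 0.277 in WT1 to WT5, with TG2 far above the rest. It was called up (log2 fold change 2.03, standard error 0.50, edgeR adjusted p = 0.0427). The lincRNA gene 3295 bases from it on the same strand, *Gm28286*, had 3.92 to 20.8 FPKM in HSD17B1TG and 0.413 to 3.81 in WT, again highest in TG2, and was not called (log2 fold change 2.25, edgeR adjusted p = 0.0711).

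The 4 further genes called up follow. *Gm26809* (chromosome 6, plus strand, 18844220 to 18847360) had 11.3 to 24.1 FPKM in HSD17B1TG and 4.51 to 9.01 in WT (log2 fold change 1.34, standard error 0.29, edgeR adjusted p = 0.0312), and it overlaps the exons of the lincRNA gene *Gm20186* on the other strand. *Gm7932* (chromosome 6, plus strand, 48860329 to 48866083) had 1.70 to 5.82 and 0.594 to 1.43 FPKM (log2 fold change 1.93, standard error 0.39, edgeR adjusted p = 0.0260). *Gm32219* (chromosome 12) had 2.48 to 6.96 and 0.752 to 2.17 FPKM (1.49, standard error 0.35, edgeR adjusted p = 0.0390), and *1810044D09Rik* (chromosome 6) 3.43 to 11.5 and 1.10 to 2.81 FPKM (1.53, standard error 0.40, edgeR adjusted p = 0.0478). The groups did not overlap in any of these 4 genes.

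*Gm7160* passed the adjusted p in edgeR (0.0380) with non-overlapping groups (2.61 to 3.50 and 1.18 to 1.98 FPKM), but its log2 fold change of 0.99 was under the fold threshold. *Gm1965* had 1.42 to 6.92 FPKM in HSD17B1TG and 0 to 0.133 in 4 WT mice, but 1.6 in WT4, and missed the threshold (log2 fold change 3.47, standard error 1.08, edgeR adjusted p = 0.0755). Without WT4 it was called, with a log2 fold change of 5.87. *Gm29009* was the 1 untested gene whose groups did not overlap, with 0.649 to 7.18 FPKM in HSD17B1TG and 0 to 0.637 in WT. *Gm7160*, *Gm29009* and *Gm28286* were named after their values were seen.

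**Figure D4:**
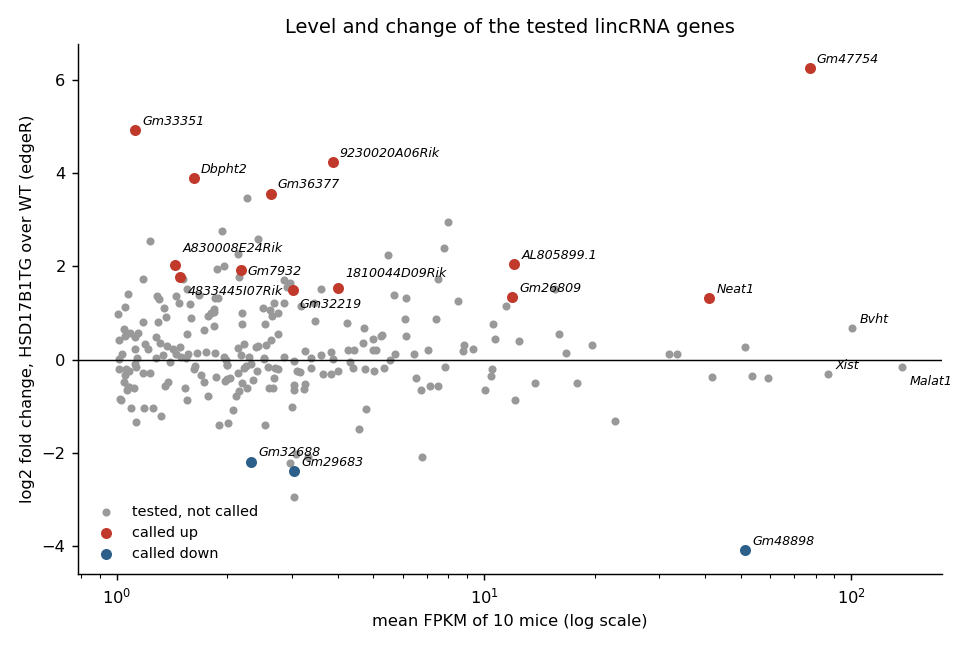
Log2 fold change of each of the 248 tested lincRNA genes against its mean FPKM over 10 mice, on a log axis. Grey points were tested and not called, red points called up (13) and blue points called down (3). *Gm47754* and *Gm48898* combine a high level with the largest rise and fall.

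The lincRNA genes lay close to coding genes, with a median gap of 4570 bases to the nearest one. Of the 267 genes, 35 overlapped a protein-coding gene, and 45 had a protein-coding start on the other strand within 1 kb of their own start, on either side. Another position, within 5 kb downstream of a coding gene on the same strand, held for 33, and 77 had exons that overlap exons of another gene. For 224 of the 248 tested genes the nearest coding gene was tested too, and in 157 (70.09%) both log2 fold changes had the same sign. Of these neighbours, 5 were called up and 8 down. Some lincRNA genes also lay next to each other: 30 pairs were within 50 kb, and in 21 of the 26 pairs with both genes tested the signs were the same. Neighbouring genes share reads where they overlap, and these shares are descriptions.

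Among the 16 called lincRNA genes, 14 had a tested neighbour, 2 of the 14 neighbours were called, and 13 of the 14 had a fitted log2 fold change of the same sign as the lincRNA gene. *Wscd1* is the neighbour of both *Gm33351* and *9230020A06Rik* and is counted for each, so the 14 are 13 different genes. The called neighbours were *Gdf7* and *Aoc1*, the diamine oxidase that degrades histamine, 6813 bases from *Gm7932*. *Aoc1* averaged 599 ± 534 FPKM in HSD17B1TG and 13.3 ± 17.6 in WT (SD, n = 5 each, log2 fold change 5.50, standard error 1.19, edgeR adjusted p = 0.0317). The neighbour of *Gm32688*, *Elk3*, an ETS family factor, went the other way (log2 fold change 0.45, edgeR adjusted p = 0.229). The neighbours *Lsm8*, *Tmx1*, *Ice1*, *Chchd4*, *Frmd8* and *Wscd1* had log2 fold changes from 0.02 to 0.76 with adjusted p-values of 0.160 or more in edgeR, and *Gm11042* and *Zfp648* had too few counts to be tested.

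**Figure D5:**
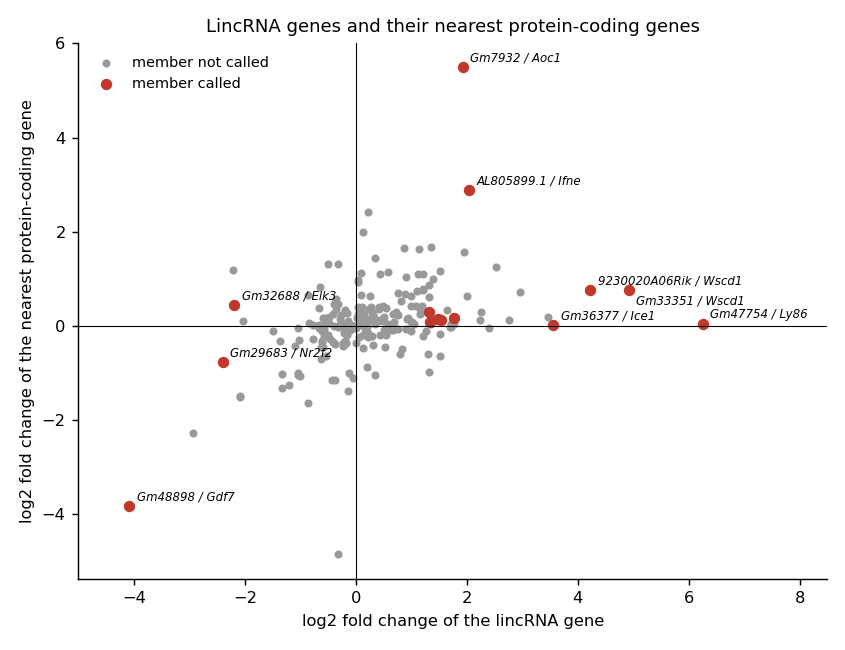
Log2 fold change of the nearest protein-coding gene against that of the lincRNA gene, for the 224 pairs in which both were tested. Red points are called lincRNA genes, labelled with their neighbour where the lincRNA changed by more than 3 or the neighbour by more than 0.4 on the log2 scale. *Gm48898* with *Gdf7*, and *Gm7932* with *Aoc1*, are the pairs in which both genes were called.

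The annotation as noncoding is not certain for every gene. In the GENCODE transcripts, the longest open reading frame from an ATG had a median of 71 codons, and 55 of the 267 genes had 1 of at least 100 codons. Of the 16 called genes these were *9230020A06Rik* (193 codons), *Dbpht2* (128), *Gm7932* (126), *Neat1* (126) and *4833445I07Rik* (106). *Gm37494* (918), *AC129328.1* (667) and *Zfp469* (523) had the longest of the 267. Translation was not measured.

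Near-identical copies elsewhere in the transcriptome, over at least 50% of a transcript at 95% identity, were found for 16 of the 267 genes and for 0 of the 16 called genes. *Gm10076* is 99.5% identical to the messenger RNA of *Rpl41*, a ribosomal protein. It had 109, 17.4, 45.0, 32.9 and 50.7 FPKM in TG1 to TG5 and 46.6, 46.5, 51.3, 57.0 and 135 in WT1 to WT5, and its reads could belong to either gene. *Gm26917*, listed with the genes that hold ribosomal RNA sequence, had 15.3 to 66.5 FPKM in HSD17B1TG and 18.7 to 44.2 in WT. Neither was called (log2 fold changes -0.40 and 0.13).

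The highest coefficients of variation were found in *4933432I03Rik*, *Gm26979* and *CT030636.1* among HSD17B1TG mice and in *Gm47751*, *Gm41386* and *Gm1965* among WT mice. *4933432I03Rik* was listed at 0 in 4 HSD17B1TG mice and had 0.115, 1.94, 8.06, 0 and 0.138 FPKM in WT1 to WT5. *Gm41386* had 0.263, 8.39, 0.134, 0 and 0.842 FPKM in WT1 to WT5 and 0 to 3.34 in HSD17B1TG. *Gm26979* had 0 to 1.18 FPKM in HSD17B1TG and 0.223 to 4.50 in WT. *CT030636.1* had 0.226 to 0.845 FPKM in 4 HSD17B1TG mice, 3.42 in TG4 and 0.320 to 1.66 in WT. These 4 genes had too few counts for the test.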

How the data were processed

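Uterine RNA of 10 mice was sequenced, and the authors deposited 1 table of raw counts and FPKM per gene and mouse. Per the labels and the paper's methods, the authors sequenced mRNA, mapped the reads with HISAT2 2.0.5 to the mouse genome with an Ensembl annotation and tested genes with DESeq2. How reads were counted, and whether strand was used, is not given in the sources used here. RNA without a poly(A) tail may be captured poorly by mRNA sequencing. The deposited FPKM imply a number of fragments per mouse that lay below its total of counts in 4 of 5 HSD17B1TG mice and above it in 4 of 5 WT mice. The deposited columns with the authors' fold changes and p-values, a shorter table of selected genes and tables of enriched terms hold their own comparison and were not used.

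The genotype in the labels set the groups. The labels do not say that mice share a litter or batch, and mice were numbered in accession order. The counts were filtered with filterByExpr, scaled by TMM and tested with edgeR 4.0.16 (R 4.3.3, quasi-likelihood test, Benjamini-Hochberg over 16993 genes). A call needed an adjusted p under 0.05, a change of more than 2-fold and over 1 FPKM as the mean of either group, as in the paper's methods. Single values per mouse were compared by exact permutation (two-sided, 252 assignments), for which the smallest p is 0.00794. Positions and overlaps were taken from the table and from GENCODE M21, which gives 28497 of the 29268 genes identical coordinates. Promoters and microRNAs came from RefSeq (GRCm38.p6), and 107 of the 267 genes had a promoter entry. Total counts were 16544864 to 19451715 in HSD17B1TG and 14817228 to 23271988 in WT. Intervals and standard errors cover counting error and the spread between these mice. The fits were tested on simulated counts with known changes.

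The members and gene lists were chosen with earlier results of these data known. Genes were named by a rule: the called lincRNA genes and their nearest coding genes, the 10 of highest mean, members of the role lists, the genes at the FPKM limit, the 3 most variable genes of each group, and of the partner lists the called genes or the 2 of smallest p. Genes outside this rule (*Gm7160*, *Gm29009*, *Gm28286*, *Myc*, *Gm37494*, *AC129328.1*, *Zfp469*, *6330403K07Rik*, *Gm20186*, *Gm7292*, *Rpl41* and the named cell type markers) were chosen after their values or annotation were seen. For the nonsense-mediated decay list, the genes under this rule are not reported here. Alternatives were DESeq2 1.42.0, other scalings and filters, limma 3.58.1 with voom or on log2(FPKM + 1) and log2(FPKM + 0.1), other thresholds, and leaving out each mouse.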

Additional observations from a re-analysis of the deposited data

Results flagged for a closer look

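In a group of 5 mice, 1 mouse was taken to stand apart when its gap to the nearest other mouse was over 0.71 of the whole range. For normally distributed values chance gives this in about 1 in 20 groups. FPKM were not transformed, so that rate need not hold here. Of the 534 lincRNA groups 60 (11.2%) met the limit, 15 of them in genes named here. WT4 stood apart above the other WT mice in *Gm47754* (6.846 FPKM), *Dbpht2* (0.6074), *AL805899.1* (8.241), *Gm1965* (1.6), *Gm47751* (2.459) and *Bvht* (207.3). TG5 was highest in *1810044D09Rik* (11.5 FPKM), *Gm26979* (1.184) and *4933432I03Rik* (0.6661), where it was the only HSD17B1TG mouse above 0. The other mice that stood apart were TG1 in *Pvt1* (1.587 FPKM), TG2 in *A830008E24Rik* (5.486), TG4 in *CT030636.1* (3.418), WT2 in *Gm41386* (8.395), WT3 in *4933432I03Rik* (8.065) and WT5 in *Gm10076* (134.8).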

How the results depend on the processing

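Against 13 lincRNA genes called up and 3 down, DESeq2's Wald test called 31 and 12, limma's voom with quality weights 38 and 11, limma on log2(FPKM + 1) 20 and 5, limma on log2(FPKM + 0.1) 21 up, and an adjusted p under 0.1 in edgeR 26 and 10. Leaving out 1 mouse gave 1 to 30 up and 0 to 9 down. Over all genes, with 367 up and 354 down, DESeq2 gave 906 and 666, voom 1083 and 665, log2(FPKM + 1) 228 down, an adjusted p under 0.05 alone 568 up, an adjusted p under 0.1 gave 791 and 608, and leaving out 1 mouse 38 to 888 up and 27 to 666 down. The cause of these differences was not tested. A limit of 0.5 FPKM would have chosen 438 genes and one of 2 FPKM 152. The median log2 fold change of 0.14 was 0.061 with upper-quartile factors, 0.21 over genes that overlap no coding gene, and 0.065 to 0.205 with 1 mouse left out. No called gene changed direction in 272 refits, and 174 kept the call. Of 22 named genes not called, 3 (*Gm1965*, *Gm47751* and *Pvt1*) were called in 11 of their refits. The 19 untested genes had few counts and were also short, so depth and length cannot be told apart there. No paired analysis was possible because the labels do not explain the numbers that end the titles, and these were not used to pair mice. TG1 and WT4, the mice whose removal raised the calls most, share an end number, as do TG3 with TG4 and WT2 with WT3.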
